A study of Rattus norvegicus with 24 samples.

Results

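The expression of 10 genes through which macrophages take up, carry, store and release lipid was followed in rat spinal cord after clip compression. The genes were named as a set (Apoe, Apoc1, Lpl, Cd36, Msr1, Fabp4, Fabp5, Plin2, Soat1 and Abca1) with earlier results of these data known. A gene was read from the probe set that carried its symbol and no other. Where several did, the brightest on average across the 24 arrays was used. This left 9 of the 10 genes, out of 14218 genes that could be read in this way. Msr1, a class A scavenger receptor, was matched to no probe set by symbol or gene number and is not analysed here.

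RNA came from the T7 spinal cord of female Wistar rats, with 4 rats in each of 6 groups and 1 array per rat. Sham rats had their vertebral laminae removed at T6-T8 without compression. Injured rats had the same laminectomy, were compressed at T7 with a 35 g clip for 1 min, and were killed 1, 3, 7, 14 or 56 days later, when a short length of cord holding the epicenter was taken. Neither the labels nor the methods state rat ages or the day on which the sham cords were taken. All values are log2 signals, so that 1 unit is a 2-fold difference, and each value below belongs to its own probe set and is not set against the level of another gene. In whole tissue, fewer cells of a type and less RNA per cell cannot be told apart.

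Debris of myelin is rich in cholesterol and fatty acids. Macrophages and microglia that engulf it hydrolyse its lipids in lysosomes, re-esterify the surplus cholesterol for storage in droplets, or pass it through membrane transporters to apolipoprotein particles, and cells in which storage outruns release take on a foamy look. Nuclear receptors that sense oxysterols and fatty acids, LXR and PPAR, are known regulators of many of these genes.

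The injured cord was rich in macrophage transcripts, less so on day 3, which stood apart. Of 11 macrophage and microglia markers, 11 were higher than sham on days 1, 7, 14 and 56, whereas on day 3 7 were higher and 2, Csf1r and Adgre1, were lower. The mean log2 level of the 11 markers ran from 7.03 to 8.95 over the sham arrays, 9.30 to 9.92 on day 3 and 10.97 to 12.37 over the arrays of the other injured days. Fibroblast markers moved with the same days: 3 of 5 were higher than sham on days 1, 7 and 14 and 4 of 5 on day 56, with median changes of 2.23, 2.90, 2.72 and 2.28, and 4 of 5 were lower on day 3. Neuronal markers were lower in 6 of 6 on days 1, 7 and 14, in 5 of 6 on day 56 and in 1 of 6 on day 3. Of 5 markers of homeostatic microglia, 4 were lower on day 3. Of 4 neutrophil markers, 2 were higher than sham on days 1 and 3. The mean level of the 4 was 3.28 in sham cord, 6.13 on day 1, 7.11 on day 3 and 3.29 to 3.93 later. S100a8 and S100a9 carried that rise, while Mmp8 (3.00 and 2.67) and Cxcr2 (2.01 and 2.43) had low group means on days 1 and 3. Of 6 red cell and platelet markers, 3 were higher than sham on days 1 and 3. On day 7, 1 was higher and 3 lower, on day 14 1 and 1, and on day 56 1 and 2. The mean level of the 6 was 6.12 in sham cord, 7.59 on day 1, 7.36 on day 3 and 5.96 to 6.06 later. These later means cover markers that moved in opposite ways: from sham to day 56 Hbb went from 14.10 to 13.00 and Pf4 from 7.20 to 10.45. The part of these cell types in the results below was not tested. The authors pre-processed each time point separately, so processing and day cannot be told apart in any comparison between groups. Muscle transcripts were present on day 7 replicates 1 and 3 and day 14 replicate 4 (Acta1 at 8.38, 8.73 and 9.79 against 2.51 to 4.75 on the other arrays).

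**Figure D1:**
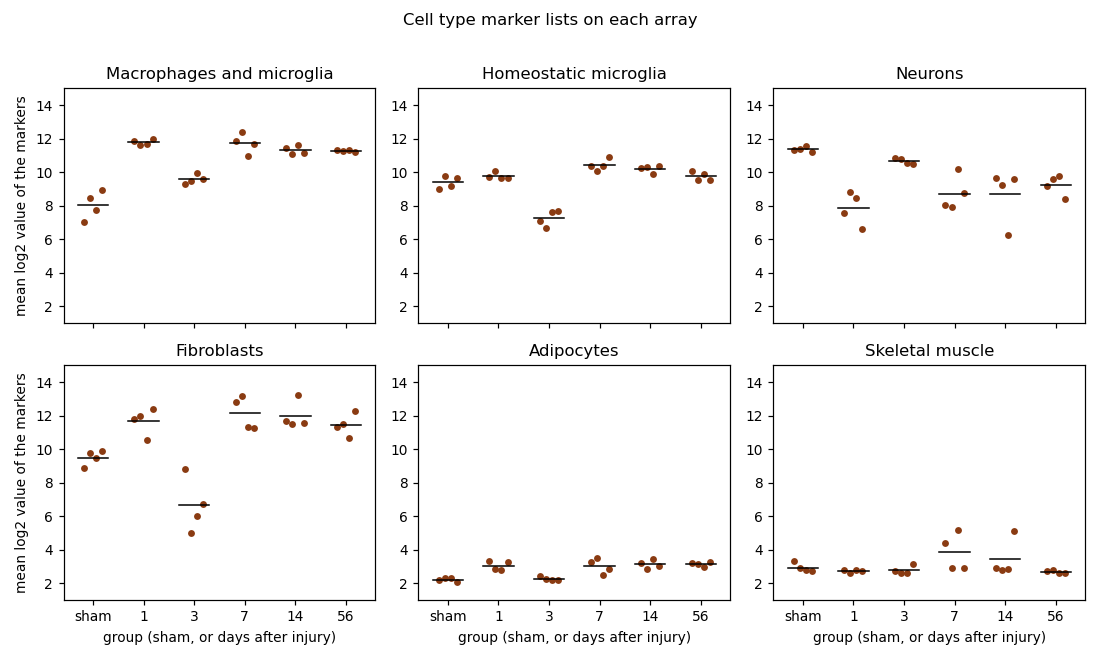
Mean log2 value of 6 cell type marker lists on each of the 24 arrays, by group (sham, or days after injury); each point is 1 rat and each bar a group mean. Macrophage and microglia markers lie above sham on all injured days and lowest among them on day 3, when homeostatic microglia and fibroblast markers drop below sham and neuronal markers lie near sham.

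All 9 genes were higher than sham on day 1, and again on days 7, 14 and 56. By the same test, 28.9% of all genes were higher than sham on day 1, 23.5% on day 7, 15.8% on day 14 and 16.1% on day 56. The 4 injured arrays of the 9 genes lay above the 4 sham arrays in every case. How many of all genes were free of overlap was not counted, so this has no share to stand beside. The median log2 fold change of the 9 genes was 3.64 on day 1, 3.17 on day 7, 3.21 on day 14 and 3.29 on day 56, beside medians between -0.05 and 0.03 over all genes. Day 3 was different: 6 of the 9 genes were higher than sham, Apoe and Abca1 were lower, and Apoc1 did not pass the test. On that day 23.7% of all genes were higher and 16.7% lower, and the median of the 9 genes was 1.47. Without the 3 arrays that held muscle transcripts, 9 of 9 genes were still higher than sham on days 7 and 14.

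**Figure D2:**
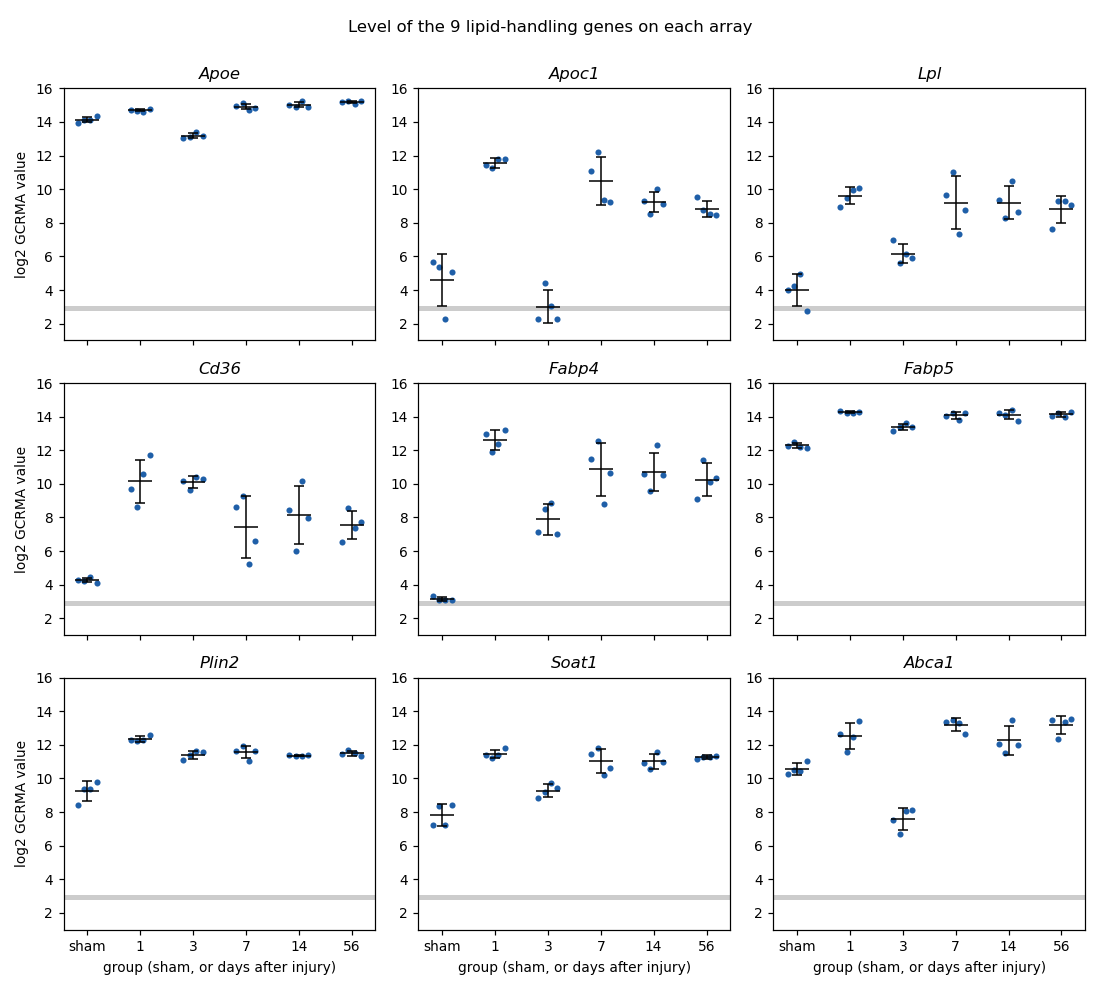
Log2 GCRMA value of the 9 genes on each array, by group (sham, or days after injury); points are single rats, and the long bar with whiskers is the mean ± SD of 4 rats. The grey band spans the array means of 3 control probe sets that have no target in rat (2.75 to 3.06). Sham Fabp4, day 3 Apoc1 and sham replicate 4 of Lpl lie near it, and Abca1 and Apoe are lowest on day 3.

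Promoter sequence is shown for Cd36 and Abca1, the genes whose day 3 values were furthest apart among those with a sequence: against sham, Cd36 was 5.85 log2 units higher and Abca1 2.96 lower. The 250 bases before the start site are taken from RefSeq (build GRCr8), 5′ to 3′ on the strand of the gene; capitals mark TATAAA and GAGGAA, the core of sites bound by the myeloid factor PU.1, read on either strand. The Cd36 stretch is chr4:18246332-18246581 on the plus strand, at one of the start sites inside the annotated gene, and the Abca1 stretch is chr5:72596474-72596723 on the minus strand.
Cd36: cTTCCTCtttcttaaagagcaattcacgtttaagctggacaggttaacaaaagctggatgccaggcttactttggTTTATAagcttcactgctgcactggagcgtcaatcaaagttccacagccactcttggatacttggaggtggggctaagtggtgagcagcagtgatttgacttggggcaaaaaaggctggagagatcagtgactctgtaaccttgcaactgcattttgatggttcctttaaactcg
Abca1: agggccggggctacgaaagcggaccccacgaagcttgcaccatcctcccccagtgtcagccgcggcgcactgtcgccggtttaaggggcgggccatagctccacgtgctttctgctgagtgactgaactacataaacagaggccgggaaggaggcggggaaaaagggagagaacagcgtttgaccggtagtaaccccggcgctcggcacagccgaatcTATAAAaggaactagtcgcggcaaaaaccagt
TATAAA lay 32 bases before the Abca1 start site, on the strand of the gene. In Cd36 it lay 175 bases before the start site and on the other strand, and GAGGAA lay at 249 bases, also on the other strand. Promoter windows were found for 6 of the 10 genes, 10 windows in all. TATAAA was in 2 of these 10 and in 12.9% of all 33469 windows, and GAGGAA was in 3 (1 window each of Apoe, Cd36 and Soat1) and in 23.3% of all. The AP-1 motif TGACTCA (4.05% of all windows), the nuclear receptor half-site AGGTCA (14.1%) and its direct repeats, with 1 base between the copies as bound by PPAR (0.0508%) or 4 bases as bound by LXR (0.00299%), were in none of the 10. Each repeat also holds the half-site. Only exact copies were searched, so sites spelled with other letters were not counted. The 2 repeats are so rare over all windows that their absence from 10 tells nothing about these genes. These are matches of letters in a short window and mark no sites of binding, and the lack of a match does not mean that a site is missing.

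Apolipoproteins and lipoprotein lipase act on lipid outside the cell. Apoe, the main apolipoprotein of the central nervous system and an acceptor of exported cholesterol (1370862_at; chromosome 1, 88481889 to 88485816 in GRCr8), was abundant in every group and changed little. The sham arrays read 13.94, 14.15, 14.13 and 14.36, and those of day 1 read 14.73, 14.68, 14.62 and 14.77. On day 3 the values were 13.05, 13.11, 13.39 and 13.15, below every sham array. The log2 fold change against sham was 0.56 ± 0.09 (SE, n = 4) on day 1 (adjusted p = 5.84e-05), -0.97 on day 3 (adjusted p = 1.66e-07), 0.77 on day 7, 0.87 on day 14 and 1.04 on day 56, the last being a 2.06-fold rise. Its order from high to low was day 56, 14, 7, 1, sham and day 3, and the neighbours that differed were day 1 from sham and sham from day 3. The other Apoe probe set, 1371288_at, was dim (group means 4.54 to 5.10) and passed the test on no day against sham, with -0.27 on day 7 (adjusted p = 0.176).

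Apoc1 lies beside Apoe on chromosome 1 (88475018 to 88479052), encodes a small apolipoprotein that inhibits lipoprotein lipase, and had a far steeper course (1368587_at). Sham arrays read 5.64, 5.35, 2.29 and 5.09, and the arrays of day 1 read 11.42, 11.24, 11.79 and 11.82. On day 3 the values returned to 2.29, 4.40, 3.07 and 2.28, at or near the level of probe sets without a target. By day 7 they were 11.11, 12.19, 9.37 and 9.24, with replicates 1 and 2 well above the other pair. The log2 fold change against sham was 6.98 ± 0.69 on day 1 (adjusted p = 1.29e-07), 5.88 on day 7, 4.65 on day 14 and 4.25 on day 56. On day 3 it was -1.58 (adjusted p = 0.0797), with overlapping ranges. That last call turned on sham replicate 3 and day 3 replicate 2: without the first the difference was -2.35 (adjusted p = 0.00528) and without the second -2.04 (adjusted p = 0.0354). Since sham replicate 3 and most day 3 arrays were near background, the size of the Apoc1 changes is not exact. Day 1 exceeded day 56 by 2.73 log2 units (adjusted p = 0.00543), while neighbouring injured days other than day 3 did not pass the test.

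Lpl encodes lipoprotein lipase, which frees fatty acids from triglyceride-rich particles (1386965_at; chromosome 16, 25596205 to 25621928). Sham values were 4.02, 4.25, 4.98 and 2.74, and day 1 values 8.96, 9.46, 9.95 and 10.06. Day 3 lay between them, at 6.95, 5.63, 6.13 and 5.90. The change against sham was 5.61 ± 0.66 log2 units on day 1 (adjusted p = 8.25e-07), 2.15 on day 3 (adjusted p = 0.0139), 5.21 on day 7, 5.20 on day 14 and 4.82 on day 56 (28.2-fold). The day 3 call was lost without sham replicate 4 (1.74, adjusted p = 0.0515). That array read at the level of probe sets without a target, so the Lpl folds have no exact size. Day 56 exceeded day 3 and day 3 exceeded sham, while no neighbours among days 1, 7, 14 and 56 differed past the test.

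Cd36 encodes a class B scavenger receptor that takes up oxidised lipoproteins and long-chain fatty acids (1367689_a_at; chromosome 4, 18209088 to 18302142). It was the 1 member without a fall from day 1 to day 3. Sham values were tight, at 4.27, 4.25, 4.44 and 4.12. On day 1 they were 9.69, 8.62, 10.56 and 11.69, and on day 3 10.14, 9.63, 10.42 and 10.28. The later means were lower, between 7.44 and 8.15, with values of 8.61, 9.29, 5.25 and 6.62 on day 7, 8.42, 6.03, 10.19 and 7.97 on day 14, and 6.55, 8.57, 7.38 and 7.74 on day 56. Day 14 did not pass the test against day 1 (adjusted p = 0.0953) or day 3 (adjusted p = 0.0519). The change against sham was 5.87 ± 0.83 log2 units on day 1 (adjusted p = 7.88e-06), 5.85 on day 3 (adjusted p = 1.57e-05), 3.17 on day 7, 3.88 on day 14 and 3.29 on day 56 (9.78-fold). Days 1 and 3 differed by 0.03 ± 0.83 (adjusted p = 0.982), an error too wide to call them alike. A further probe set, 1386901_at, which also carries the symbol Cd36l1, changed by 5.79 on day 3 and 3.62 on day 7.

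From day 3 to day 7 Cd36 fell by 2.68 log2 units (adjusted p = 0.0215), with no overlap. This call was lost without day 3 replicate 3 (-2.58, adjusted p = 0.0507), day 7 replicate 3 (-1.95, adjusted p = 0.0837) or day 7 replicate 4 (-2.4, adjusted p = 0.0633), and in a fit of these 2 groups alone (adjusted p = 0.0786). Without the 3 arrays holding muscle transcripts it was -2.16 (adjusted p = 0.129). Day 56 was lower than day 1 by 2.58 (adjusted p = 0.0249), and this call was lost without day 1 replicate 3 or 4, or day 56 replicate 1 or 3 (adjusted p from 0.0554 to 0.0998), and with the methods' t-test (adjusted p = 0.0706).

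Fabp4 and Fabp5 encode cytosolic carriers of fatty acids and lie close together on chromosome 2, at 93488251 to 93492961 and 93672451 to 93676186. Fabp4, best known from adipocytes and also made by macrophages and some endothelium, had the highest fold changes of the 9 genes on days 1, 7, 14 and 56 (1368271_a_at). Sham values were 3.33, 3.07, 3.10 and 3.12, just above the level of probe sets without a target. The day 1 arrays read 12.97, 11.87, 12.35 and 13.18. The values of day 3 were 7.15, 8.49, 8.83 and 7.04, and those of day 7 were 11.49, 12.54, 8.81 and 10.63. The log2 change against sham was 9.44 ± 0.68 on day 1 (adjusted p = 3.69e-09), 4.73 on day 3, 7.71 on day 7, 7.58 on day 14 and 7.10 on day 56 (adjusted p = 4.41e-07). With the sham level so near background, these folds have no exact size. Day 56 was lower than day 1 by 2.34 (adjusted p = 0.0135), a call lost without day 56 replicate 1 (-1.95, adjusted p = 0.0552).

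Of 5 adipocyte markers measured, Adipoq, Lep, Plin1 and Cidec had group means between 2.02 and 2.49, at background, in all 6 groups. The mean level of the 5 adipocyte markers ran from 2.05 to 2.30 over the sham arrays and from 2.19 to 3.51 over the injured arrays. Cfd, the gene of complement factor D, was the marker that rose, with log2 changes of 4.19 on day 1, 0.42 on day 3 and 4.71 on day 56. Endothelial markers were higher than sham in 2 of 6 on day 1 and 1 of 6 on days 3 and 7. By limma 0 of 6 passed in either direction on days 14 and 56. Without adjustment 1 and 2 passed, counted in either direction, and the median changes of the 6 were -0.23 and -0.24. The cells in which Fabp4 was expressed were not tested.

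Fabp5, made in brain as well as in macrophages, was already high in sham cord and changed within a narrow range (1370281_at). Sham values were 12.24, 12.51, 12.22 and 12.16, those of day 1 were 14.31, 14.20, 14.21 and 14.29, and those of day 3 were 13.14, 13.37, 13.61 and 13.40. The 6 groups formed 3 levels, with sham lowest, day 3 above it by 1.10 ± 0.12 (adjusted p = 1.01e-06), and days 1, 7, 14 and 56 above day 3. Among the last 4, the largest step between neighbours was 0.13 ± 0.12. Against sham the rise was 1.97 on day 1 (3.92-fold) and 1.85 on day 56 (3.59-fold).

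Plin2 encodes a coat protein of lipid droplets and marks cells that hold them (1382680_at; chromosome 5, 106202634 to 106258748). Sham values were 8.40, 9.37, 9.39 and 9.79. They rose to 12.28, 12.25, 12.31 and 12.62 on day 1 and were 11.10, 11.37, 11.64 and 11.56 on day 3. The groups of days 3, 7, 14 and 56 had means between 11.37 and 11.57, with no passing difference between neighbours. The log2 change against sham was 3.13 ± 0.22 on day 1 (adjusted p = 2.65e-09), 2.18 on day 3, 2.33 on day 7, 2.13 on day 14 and 2.28 on day 56. The other probe set, 1390383_at, gave 5.80 on day 1, 5.48 on day 3 and 3.96 on day 56. Its group means were 12.19 on day 1 and 11.87, 11.14, 10.85 and 10.35 on days 3, 7, 14 and 56. The height of the rise and the later course thus depended on the probe set, while the direction against sham did not. No test between injured days is given for 1390383_at alone. In 1382680_at the fall from day 1 to day 3 was 0.95 (adjusted p = 0.00237). It did not pass when the 2 probe sets were averaged (-0.63, adjusted p = 0.116).

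Soat1 encodes the acyltransferase that esterifies cholesterol for storage in droplets (1374976_a_at; chromosome 13, 71105178 to 71147776). Sham values were 7.22, 8.36, 7.26 and 8.45, day 1 values 11.38, 11.24, 11.37 and 11.83, and day 3 values 8.82, 9.18, 9.71 and 9.44. Day 3 again stood between sham and the rest, 1.47 ± 0.33 above sham (adjusted p = 0.00156) and 1.74 below day 14 (adjusted p = 0.000405). Days 1, 7, 14 and 56 were 3.64, 3.22, 3.20 and 3.46 above sham, and day 1 and day 56 differed by -0.18 ± 0.33 (adjusted p = 0.765). The second probe set, 1369002_at, rose by 5.22 on day 1, 2.61 on day 3 and 4.75 on day 56.

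Abca1 encodes the transporter that moves cholesterol and phospholipid out of the cell to lipid-poor apolipoproteins (1382431_at; chromosome 5, 72473676 to 72596563). Sham values were 10.26, 10.52, 10.43 and 11.04, and day 1 values 12.67, 11.58, 12.45 and 13.45. On day 3 they were 7.56, 6.70, 8.05 and 8.12, so that the highest day 3 array lay below the lowest sham array. On day 7 they were 13.38, 13.49, 13.28 and 12.64. The log2 change against sham was 1.97 ± 0.43 on day 1 (adjusted p = 0.000649), -2.96 on day 3 (adjusted p = 1.68e-05, a level 0.129 times that of sham), 2.63 on day 7, 1.70 on day 14 and 2.62 on day 56. Of the 3 other Abca1 probe sets, 1394490_at (-1.43) and 1384381_at (-1.49, with overlapping ranges) were also lower than sham on day 3, and 1383355_at was not (-0.21, adjusted p = 0.638). All 4 rose on the other days, by 1.70 to 4.71 log2 units. The size of the day 3 fall below sham therefore depended on the probe set, and the step down from day 1 was seen in each, with day 1 means of 10.95 to 12.54 and day 3 means of 5.37 to 7.96.

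**Figure D3:**
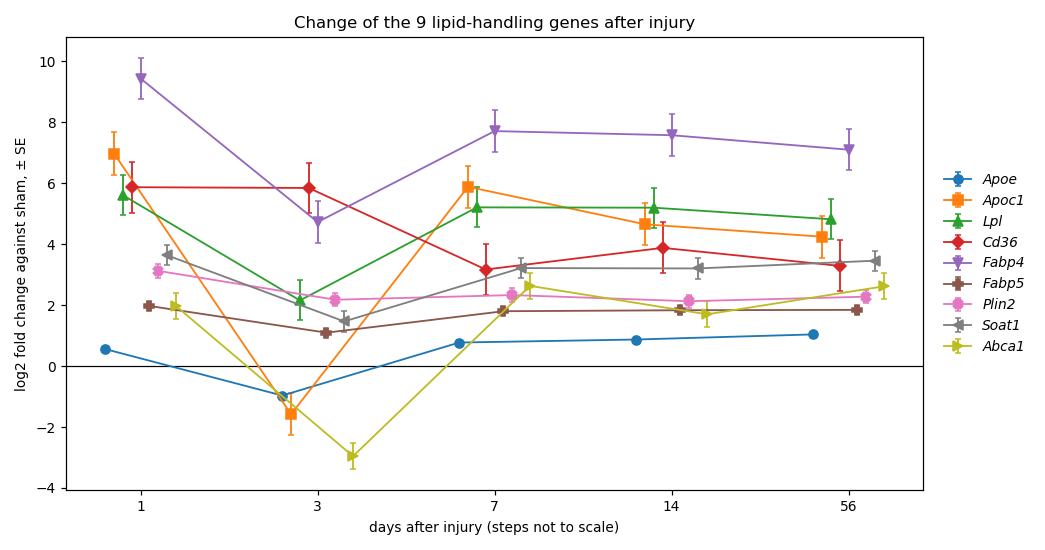
Log2 fold change against sham of the 9 genes on days 1, 3, 7, 14 and 56 (mean of 4 injured rats less mean of 4 sham rats; bars are SE from the fit; points are shifted sideways for legibility and the steps between days are not to scale). Abca1, Apoe and Apoc1 lie below 0 on day 3 and above it on every other day, while the Cd36 values of day 1 (5.87) and day 3 (5.85) lie above those of the later days.

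Between injured days, the course of most of the 9 genes was a fall from day 1 to day 3 and a rise to day 7. Between later neighbouring days no change passed limma's test, with errors of up to 0.83 log2 units. From day 1 to day 3, 8 of the 9 genes fell, against 18.3% of all genes, with a median of -2.17. The exception was Cd36. The largest falls were those of Apoc1 (-8.56), Abca1 (-4.93) and Fabp4 (-4.71). From day 3 to day 7, 7 of the 9 rose, against 12.8% of all genes, and Cd36 was the 1 that fell, against 17.1%. Apoc1 rose by 7.46 and Abca1 by 5.59 over that interval, and Plin2 changed by 0.15 (adjusted p = 0.729). The methods' t-test gave 5 higher and 0 lower for the same interval. The day 7 and day 3 arrays of Fabp4 overlapped slightly in range.

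From day 7 to day 14 0 of the 9 genes passed limma's test at an adjusted p of 0.05, while 28% of all genes did. Without adjustment 1 (Abca1, -0.93) passed. Some probe sets under the level of those without a target also shifted slightly between these days, with little spread. Plin1 had means of 2.04 and 2.13, and Apoa1 of 2.20 and 2.30. How many such probe sets are in the 28% was not counted, so that share does not show the 9 genes to be unusually steady. From day 14 to day 56 0 of the 9 genes passed either, in a comparison in which 0.338% of all genes did. Without adjustment 1 (Abca1 again) passed. By the methods' t-test 0 of the 9 passed in these comparisons, with or without adjustment. The differences from day 14 to day 56 lay between -0.59 (Cd36) and 0.92 (Abca1). Between the acute and the chronic end, day 56 against day 1, Apoe was higher by 0.48 (adjusted p = 0.000705; 0.17 and adjusted p = 0.196 when its probe sets were averaged), and Apoc1, Cd36, Fabp4 and Plin2 were lower by 0.85 to 2.73. This was 1 gene higher against 11.1% of all genes and 4 lower against 21.2%. The other 4, Lpl, Fabp5, Soat1 and Abca1, differed by -0.79 to 0.65 and did not pass.

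Within the injured groups, the same array was often the highest or the lowest for most of the 9 genes. On day 1 replicate 4 was the highest array for 8 of the 9 genes and had the lowest neuronal marker mean (6.60), while replicate 2 was lowest for 7 and had the highest neuronal mean (8.80). On day 7 replicate 2 was highest for 8 genes, with macrophage markers at 12.37 and neuronal markers at 7.91, and replicate 3 was lowest for 7, with 10.97 and 10.17. On day 14 replicate 3 was highest for 8 genes, with a neuronal mean of 6.27 against 9.22 to 9.64 on the other 3 arrays, and replicate 2 was lowest for 7, with 9.22. On day 3 replicate 3 was highest for 6, although replicate 4 had the lowest neuronal mean (10.46 against 10.57). On day 56 replicate 2 was highest for 5, with macrophage markers at 11.23 and neuronal markers at 9.58. Replicate 1 was lowest for 4, with 11.34 and 9.18, and the lowest neuronal mean of that day was that of replicate 4 (8.41). On days 1, 7 and 14 the array highest for the most genes thus had the lowest neuronal mean, and on days 3 and 56 it did not. The array lowest for the most genes had the highest neuronal mean on days 1, 3 (replicate 1, 10.82) and 7. It did not on day 14, when replicates 1 and 4 read 9.64 and 9.61, or on day 56, when replicate 3 read 9.78. The part of tissue composition in these differences was not tested.

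The other genes of lipid handling came from 6 lists of 60 genes, 56 of them measured. On day 1, 23 of 56 were higher and 7 lower than sham. On day 3 the counts were 12 and 11, on day 7 they were 19 and 12, on day 14 19 and 4, and on day 56 26 and 7. Over all genes, 28.9% were higher and 20.4% lower than sham on day 1, and 23.7% and 16.7% on day 3. On day 7 these shares were 23.5% and 30%, on day 14 15.8% and 16.3%, and on day 56 16.1% and 15.9%. They stand beside the counts of each list below as well. The count of 12 lower genes on day 7 rested on small shifts of dim probe sets: 1 of the 12 was lower by 1 log2 unit or more, and the count was 3 after dim probe sets were left out. The median log2 change of the 56 genes was between -0.05 and 0.24 on all days.

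Among 10 genes of lipoproteins and lipases, 2 were higher and 2 lower than sham on day 1, 1 and 2 on day 3, 2 and 4 on day 7, 2 and 0 on day 14, and 3 and 1 on day 56. Apoc2, Apoc4, Apoa1, Apob, Lipc and Gpihbp1 had group means between 1.87 and 2.64, under the level of probe sets without a target, so that a change in them could not be read; the 4 lower on day 7 were among these 6. Angptl4, which encodes an inhibitor of lipoprotein lipase, rose by 5.53 ± 0.47 on day 1, 3.88 on day 3, 4.61 on day 7 and 2.18 on day 56. Pltp, the gene of phospholipid transfer protein, changed by 1.88, -2.90, 2.43, 2.4 and 2.32 on the 5 days in order, each past the test. Lcat, whose product esterifies cholesterol in lipoprotein particles, was lower on day 1 (-1.83) and day 3 (-5.00) and higher on day 56 (1.49). Apod, another apolipoprotein, was slightly lower on days 1 (-0.47) and 56 (-0.50).

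Among uptake receptors, 6 of 8 were higher on day 1, 3 on day 3, 5 on days 7 and 14, and 7 on day 56. On each of days 1, 3 and 56, 1 was lower. Cd68, an endosomal scavenger receptor of macrophages, rose by 9.0 ± 0.64 on day 1, 4.54 on day 3 and 8.75 on day 56, from a sham mean of 2.94 at the level of probe sets without a target, so that these folds have no exact size. Stab1, a scavenger receptor of macrophages and sinusoidal endothelium, was 5.11 above sham on day 1 and 4.40 above it on day 7, with a day 3 value of -0.01 (adjusted p = 0.992). Colec12 was lower on day 3 (-3.93, adjusted p = 0.000131). Its day 56 value was 1.93 (adjusted p = 0.0394), a call lost without sham replicate 1 or 3 or day 56 replicate 1, 2 or 4 (adjusted p from 0.057 to 0.136). Cxcl16, which also binds oxidised lipoprotein, rose on all 5 days, by 2.28 to 3.64. Sham replicate 1 read 3.51 where the highest sham array read 8.45, and without it the Cxcl16 rise was 2.14 on day 1, 1.09 on day 3, 2.29 on day 7 and 2.31 on day 56, each still past the test.

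Of 9 genes of fatty acid binding and activation, 2 were higher and 3 lower on day 1, and 2 and 3 on day 3. The counts were 1 and 3 on days 7 and 14, and 2 and 3 on day 56. Acsl5, an acyl-CoA synthetase, rose on all 5 days, from 2.58 on day 1 to 1.32 on day 56. Acsl4 was higher early, by 1.2 on day 1 and 1.38 on day 3, and passed the test on no later day. Fabp3, the heart type of the carriers, was lower on day 3 alone of the 5 days tested (-1.82, adjusted p = 3.28e-06). Slc27a1, a fatty acid transporter, was lower on days 1 and 3 (-1.24 on day 3).

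Of 10 genes of droplets and ester synthesis, 4 were higher on day 1, 3 on day 3, 4 on days 7 and 14, and 5 on day 56. On day 7, 3 were lower, 0 of them by 1 log2 unit or more. Hilpda, which restrains the breakdown of droplet triglyceride and responds to low oxygen, was among the steadiest, with rises of 5.42 on day 1, 5.30 on day 3 and 4.23 on day 56. Plin3 rose by 2.91 on day 1 and by 1.85 to 2.23 later. Dgat1, which makes triglyceride, was higher on day 1 (2.14), day 3 (1.61) and day 7 (1.25) and did not pass the test on days 14 and 56. Cidea, which fuses droplets, had group means of 1.71 to 2.47 in sham and on days 1 to 14, under the level of probe sets without a target, so that its day 14 call (0.58, adjusted p = 0.0277, lost when any 1 of 5 arrays was left out) compares values at background. On day 56 it read 3.93 to 4.63, above sham (adjusted p = 8.04e-08), with no exact size of the rise.

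Of 7 genes of lipid hydrolysis and lysosomal release, 3 were higher on day 1, 1 on day 3, 2 on days 7 and 14, and 3 on day 56. On day 3, 2 were lower. Lipa, the lysosomal acid lipase that hydrolyses engulfed cholesterol esters, rose by 2.30 on day 1 and by 2.05 to 2.24 on days 7, 14 and 56, and its day 3 value was -0.01 (adjusted p = 0.977). Npc2, which hands cholesterol out of the lysosome, changed by 0.82, -0.51, 1.17, 1.19 and 1.42 on the 5 days in order. Mgll, a monoglyceride lipase, was lower on day 3 (-1.33) and higher on day 56 (1.16). Pnpla2, the first lipase of droplet triglyceride, rose by 0.74 on day 1 and passed on no other day.

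Of 12 genes of efflux, oxysterols and nuclear receptors, 6 were higher on day 1, 2 on day 3, 5 on days 7 and 14, and 6 on day 56. The lower counts on the 5 days in order were 1, 3, 2, 1 and 2. Nr1h3, the gene of the oxysterol receptor LXR alpha, rose by 2.73 ± 0.33 on day 1, was not called on day 3 (0.44, adjusted p = 0.271), and rose by 1.85, 2.20 and 2.75 on days 7, 14 and 56. Mylip, an LXR target that degrades the LDL receptor, changed by 1.94, -1.82, 2.27, 2.45 and 2.56 on the 5 days in order, with overlapping ranges on day 3. Ch25h, which makes 25-hydroxycholesterol, went the other way on day 3, with 3.42 on day 1, 4.02 on day 3 and 2.75 on day 56. Abcg1, the transporter that works beside Abca1, was lower on day 3 (-1.0, adjusted p = 0.000616) and higher by 1.05 on day 1 and 1.70 on day 56. Cyp27a1, which makes 27-hydroxycholesterol, rose on day 14 (1.18, and 0.77 without day 14 replicate 3) and day 56 (2.4).

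**Figure D4:**
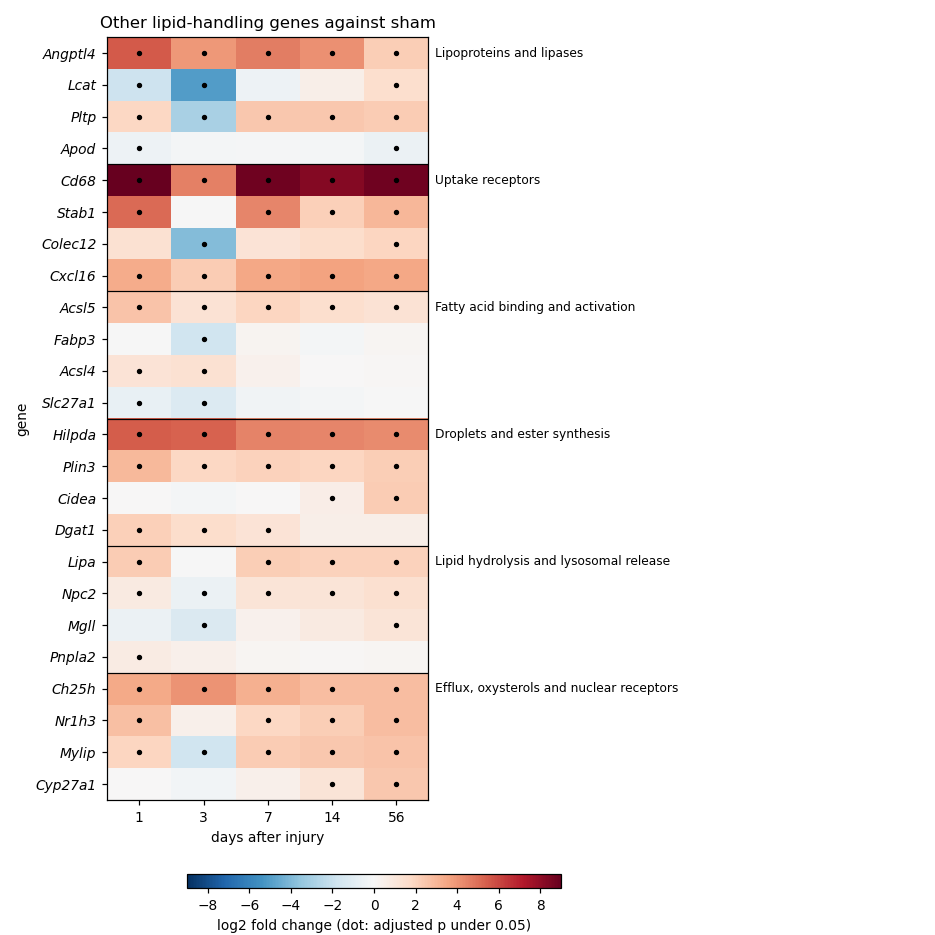
Log2 fold change against sham (colour) of 24 other lipid-handling genes on days 1, 3, 7, 14 and 56, grouped by list, up to 4 genes a list; a dot marks an adjusted p under 0.05. Pltp, Colec12, Mylip and Lcat are lower than sham on day 3, when Hilpda, Angptl4 and Ch25h are higher, and Cidea on day 56 and Cyp27a1 on days 14 and 56 are higher.

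For each of the 9 genes, the most similar courses were found among the other 14217 genes by the root mean square difference between the log2 changes on the 5 days. Apoe was closest to Cd83 (0.13) and Sirpa (0.17), Apoc1 to Cyp1b1 (0.95) and Tmem37 (1.13), and Lpl to Slc15a3 (0.33) and Gngt2 (0.47). Cd36 was closest to Sdc1 (0.41) and Enpp3 (0.57), and Sdc1, the gene of syndecan-1, changed by 6.24 on day 1, 6.04 on day 3 and 3.27 on day 7. Fabp4 was closest to Folr2 (0.57), a folate receptor of macrophages, and Cd68 (0.95). Fabp5 was closest to Ctsb (0.11), which encodes a lysosomal cathepsin, and Col12a1 (0.16), Plin2 to Cblb (0.15) and Rab20 (0.16), and Soat1 to Ptprc (0.12), the gene of the leukocyte antigen CD45, and Hk2 (0.21). Abca1 was closest to Pltp (0.36) and Asgr2 (0.47). All these courses share the sham arrays, and the values describe likeness with no test.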

How the data were processed

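The log2 values were deposited by the authors as GCRMA signals of Affymetrix rat expression arrays, and were used as deposited. The authors ran affy (version 1.12.2) and GCRMA, and pre-processed each time point separately. GEO's labels and the study's methods differ on the amount of starting RNA and the labelling kit. Of 31099 probe sets, 20832 carried 1 gene symbol in the platform annotation, 436 several and 9831 none. The last include 57 control probe sets, and 3 of these, which have no target in rat, gave the background level (array means 2.75 to 3.06). Gene positions and promoters are RefSeq's (GRCr8).

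limma (version 3.58.1, R 4.3.3) fitted all 24 arrays in 6 groups, with 18 residual degrees of freedom. Tests were 2-sided, with Benjamini-Hochberg adjustment over the 20832 probe sets within each of 15 comparisons and a threshold of 0.05. Counts over all genes used 1 probe set for each of 14218 genes. Errors after ± are standard errors of that fit. The fit was tested on simulated data. Comparisons with sham share its 4 arrays. The replicates are separate rats, and their number limits the precision.

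The members, lists and markers (65 of 74 marker genes measured) were chosen with earlier results of these data known. All members are named. From each list, up to 4 genes are named, those with the largest change among genes that passed the test without overlap, and 2 genes of most similar course for each member. Genes outside these rules (Apoc2, Apoc4, Apoa1, Apob, Lipc, Gpihbp1, Abcg1, Cfd, the adipocyte markers, the neutrophil markers, and the markers Csf1r, Adgre1, Hbb and Pf4) were named after their values were seen. Alternatives were a limma fit of 2 groups only, a mean-variance trend, robust variances, and a plain t-test of 2 groups with equal variance. The others were quantile normalization, median centring, a filter on group means under 5, a replicate block, averaging the probe sets of a gene and leaving out each array. Other probe sets, leaving out 3 arrays with muscle transcripts, and leaving out each array for the named genes of the lists were added after the data were examined. The replicate numbers do not pair the rats: over 60 pairs of arrays with the same number the deviations from the group means correlated with a median of 0.01 (-0.71 to 0.48).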

Additional observations from a re-analysis of the deposited data

Results flagged for a closer look

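An array stood far from the other 3 of its group in 5 of 54 checks of a gene within a group, where chance gives about 1 in 20. These were Apoc1 on sham replicate 3 (2.29), Lpl on day 56 replicate 1 (7.62), Fabp4 on sham replicate 1 (3.33), Plin2 on day 1 replicate 4 (12.62) and Abca1 on day 56 replicate 2 (12.37). The Apoc1 and Fabp4 values lie at or near background.

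The effect against sham differed between successive days for all 9 genes, by the contrast of those days in the same limma fit. For Cd36 and Plin2 this rests on 1 step each, and neither call held under all alternatives. That of Cd36 was lost in a limma fit of 2 groups only (adjusted p = 0.0786), and that of Plin2 when its probe sets were averaged (adjusted p = 0.116). From day 1 to day 3 the difference was -1.52 for Apoe, -8.56 for Apoc1, -3.45 for Lpl, -4.71 for Fabp4, -0.88 for Fabp5, -0.95 for Plin2, -2.17 for Soat1 and -4.93 for Abca1. From day 3 to day 7 it was 1.74 for Apoe, 7.46 for Apoc1, 3.05 for Lpl, -2.68 for Cd36, 2.99 for Fabp4, 0.70 for Fabp5, 1.75 for Soat1 and 5.59 for Abca1. The authors pre-processed each time point separately, so processing and day cannot be told apart here.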

How the results depend on the processing

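Against sham, 446 of 453 values of single genes kept their direction and their side of the threshold under alternatives other than leaving out an array, and 357 of 360 when 1 array was left out. The 1 value that turned was that of Apoe on day 7 from its dim probe set 1371288_at (-0.27). Between injured days the counts were 846 of 873 and 692 of 720. The replicate block changed no call of a member and gave 11 lower among the other lipid-handling genes on day 7; the replicate numbers are no pairing. Lower counts of the other lipid-handling genes moved with centring. Median centring, which moved the median change of all genes to -0.11, -0.13, -0.19, -0.05 and -0.11 on the 5 days, gave 15 lower on day 1, 24 on day 3, 19 on day 7 and 8 on day 14. On day 7 a fit of 2 groups only gave 4, quantile normalization 4, leaving out dim probe sets 3, averaging the probe sets of a gene 6, leaving out 3 arrays with muscle transcripts 3, and leaving out 1 array 4 to 14 (14 without sham replicate 4, and 4 to 6 with each of the other 7 left out in turn). On day 56 leaving out 1 array gave 4 to 7, the 4 without sham replicate 3. The number of members lower on day 7 than on day 3 was 0 with 2 groups only, with the plain t-test and without 3 arrays with muscle transcripts. It was 0 to 1 when 1 array was left out. From day 7 to day 14, 1 member was higher with averaging the probe sets of a gene (Apoe), and 0 to 1 was lower when 1 array was left out (Abca1, without day 14 replicate 3). Apoc1 on day 3 passed as lower after median centring (-1.66, adjusted p = 0.0436). The cause of these changes was not tested. The number of arrays and the closeness of sham Fabp4, day 3 Apoc1 and 1 sham array of Lpl to background limit the precision of their folds.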
